A study of Mus musculus with 20 samples.

Results

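The transcripts of 9 estrogen-metabolizing enzymes were followed in mouse liver: Sult1e1, Sult1a1, Sts, Hsd17b2, Hsd17b11, Hsd17b12, Ugt2b1, Ugt2b5 and Cyp1b1. Members were taken by gene name, as every non-control probe that the array files assign to one of these genes, which gave 11 of 55681 probes and 9 of the 21998 genes kept for testing. The mice were ERa-/- (null, estrogen receptor alpha deficient) or ERa+/+ (wild type), the wild-type breeders having the same parents as the null line. Ovaries had been removed from all animals when 4 weeks old, and the gavage at 9 weeks was estradiol (E2, 1 mg/kg) or a placebo of 5% ethanol in castor oil, and livers were taken 4 hours later under ketamine and xylazine anesthesia. The 4 groups were null E2, null placebo, wild-type E2 and wild-type placebo, with 5 separately numbered animals each and 1 array per animal, so p-values measure the spread between animals. The labels name neither the deleted part of the receptor gene nor a Cre driver, and a whole liver piece was used, so fewer cells of a type and less RNA per cell cannot be told apart.

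The liver is a main site where circulating estrogens are inactivated. Sulfotransferases and glucuronosyltransferases attach a sulfate or a glucuronic acid that blocks receptor binding and makes the steroid water-soluble, and steroid sulfatase reverses the first of these steps. Hydroxysteroid dehydrogenases interconvert potent estradiol and weaker estrone, and cytochrome P450 enzymes hydroxylate the ring to catechol estrogens.

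Levels are given as log2 intensity relative to the 75th percentile of the array, so a level of 0 is that percentile. Levels of different probes cannot be set against each other. Of the 11 probes, 10 were well above background on all 20 arrays, and these covered all 9 genes. The remaining one, a second Hsd17b11 probe, was well above background on 2 of 5 null E2, 3 of 5 null placebo, 2 of 5 wild-type E2 and 3 of 5 wild-type placebo arrays and was not tested. On build mm9, 4 of the 9 genes had probes on chromosome 5: Sult1e1 at chr5:88005187-88005246, Ugt2b1 at chr5:87346310-87346369, Ugt2b5 at chr5:87554155-87554214 and Hsd17b11 at chr5:104419127-104419186, all on the minus strand. Hsd17b2 was probed at chr8:120282508-120282567 (plus strand), Hsd17b12 at chr2:93873719-93873778 (minus strand) and Cyp1b1 at chr17:80106547-80106606 (minus strand). The files give no position for the Sts probe, which stood apart in composition with 70.0% G and C, against a median of 43.3% over all probes.

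Probe sequences are printed below for Sult1a1, Sult1e1, Hsd17b2 and Hsd17b12 only. The Sult1a1 probes lie at chr7:133816657-133816716 and chr7:133816605-133816664 on the minus strand. Capitals mark the 8 bases that they share, the last triplet being TGA. The downstream Sult1a1 probe and the Sult1e1 probe are shown by their first 30 bases.
Sult1a1, upstream probe: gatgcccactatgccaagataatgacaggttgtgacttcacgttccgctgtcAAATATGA
Sult1a1, downstream probe: AAATATGAgtggatatggctatactgggaa
Sult1e1 probe: aatggagctctgagccacttccttgtgtct
Hsd17b2 probe: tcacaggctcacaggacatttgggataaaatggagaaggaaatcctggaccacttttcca
Hsd17b12 probe: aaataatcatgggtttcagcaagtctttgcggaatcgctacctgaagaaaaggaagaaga
No member probe shared a run of more than 18 bases with a probe of another gene. That longest run lay between the Ugt2b5 probe and a probe for Ugt2b37, a close relative, and the share of related transcripts in the Ugt2b5 signal was not tested.

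Esr1, the gene of the receptor, was lower in nulls, at -1.63 ± 0.31 (null E2) and -1.61 ± 0.48 (null placebo), against 0.60 ± 0.41 in wild-type E2 and 0.39 ± 0.25 in wild-type placebo livers (SD, n = 5 each). The difference was -2.23 ± 0.23 under E2 and -2.0 ± 0.23 under placebo (SE, limma adjusted p of 1.81e-05 and 0.000482), and no null liver overlapped a wild-type liver. The Esr1 probe was still well above background on 5 of 5 null E2 and 5 of 5 null placebo arrays. The hepatocyte markers, 10 of 10, were well above background on every array. Between 51.6% and 70.0% of spots were well above background per array, with wild-type E2 animal 1 at the top. The arrays lay on 4 slides, and animals numbered below 750 made up 2 of 5 null E2, 3 of 5 null placebo, 2 of 5 wild-type E2 and 0 of 5 wild-type placebo animals.

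The first question was whether E2 or loss of the receptor changed any of these enzymes. With limma, 0 of the 9 members passed an adjusted p of 0.05 for E2 against placebo in wild types, where 0.318% of all genes did. The same held for E2 in nulls (0.00455% of all genes), for the difference between the 2 effects (0.164%), for nulls compared with wild types given placebo (0.0727%) or given E2 (0.464%), and for the genotype difference averaged over both treatments (0.696%). Tested probe by probe, 0 of the 10 kept member probes passed in any of the 6 comparisons, where in the order just given 0.304%, 0.00323%, 0.184%, 0.0614%, 0.443% and 0.63% of all kept probes did. At an unadjusted p of 0.05, 1 member passed for E2 in wild types (8.28% of all genes) and 0 for E2 in nulls (6.06%). The number was 1 for the difference of the effects (7.39%), 1 for the genotype difference given placebo (10.1%), 1 given E2 (9.63%) and 3 averaged over treatments (12.9%). These were Hsd17b2, Sult1e1, Sult1a1 and Hsd17b12, in the comparisons given with each gene. Those averaged over treatments included Sult1a1 and Hsd17b12. The levels of these genes varied together across animals (r = 0.77 after subtraction of the group means), so they are not independent counts. For E2 in wild types 5 of 9 members lay above 0 with a median of 0.03, against 50.6% of all genes and an all-gene median of 0.00. Members above 0 numbered 3 for E2 in nulls (46.8% of all genes), 5 for the difference of the effects (53.4%), 5 for the genotype difference given placebo (53.4%), 3 given E2 (49.6%) and 3 averaged (51.3%). Groups without overlap were found for 1 member in 1 comparison, Hsd17b2 higher with E2 in wild types (0.968% of all genes), and for 0 members lower there (0.536%). For E2 in nulls 0 members separated, with shares of all genes of 0.241% higher and 0.568% lower. For nulls compared with wild types 0 members separated either, where 1.2% of all genes were higher and 0.65% lower given placebo, and 1.35% higher and 1.14% lower given E2.

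**Figure D1:**
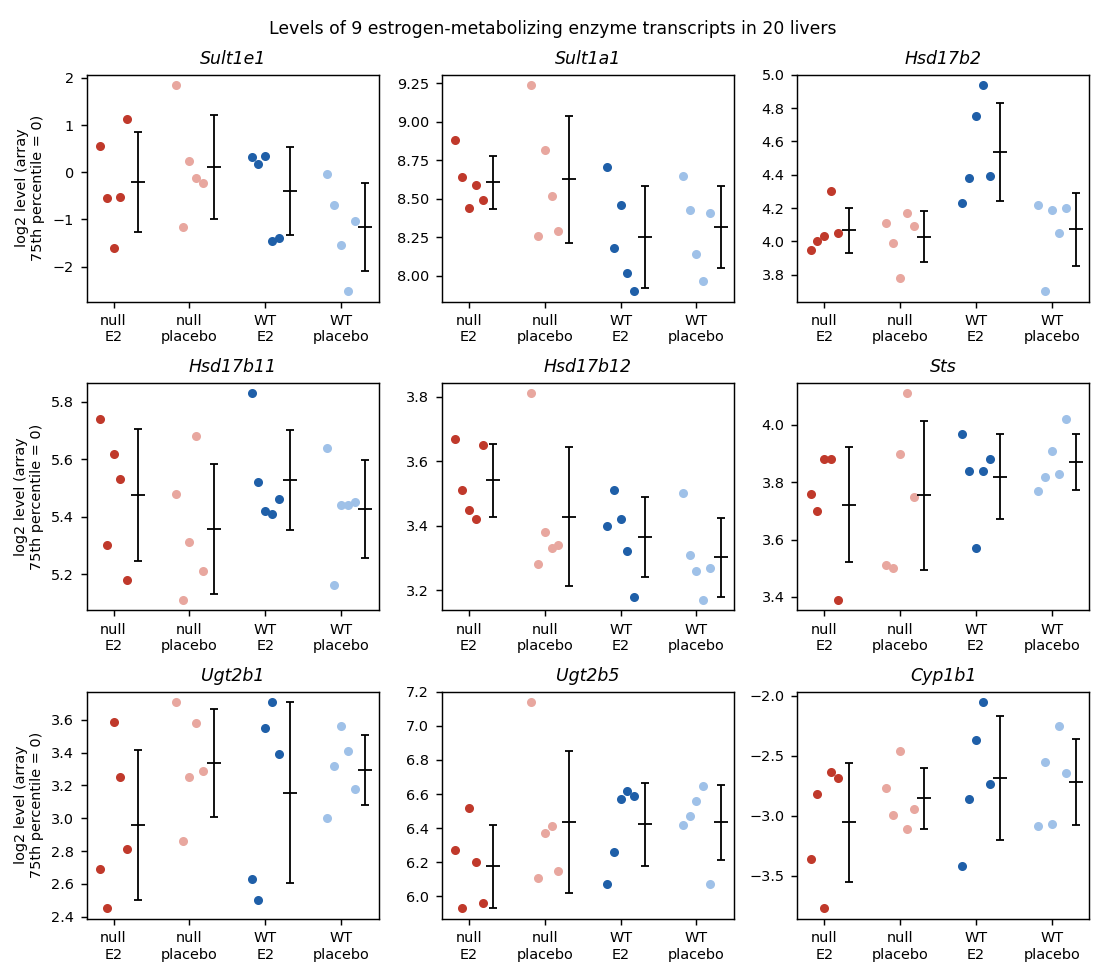
Log2 level of each of the 9 enzyme transcripts (y axis, array 75th percentile = 0) in null E2, null placebo, wild-type (WT) E2 and WT placebo livers. Points are single animals and the black mark gives the group mean ± SD (n = 5). Hsd17b2 is the member whose WT E2 animals all lie above the WT placebo animals, and Sult1e1 spreads over the widest range of levels.

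Sult1e1 encodes the estrogen sulfotransferase, which conjugates estradiol and estrone with high affinity. Its levels were 0.55, -0.54, -1.60, -0.53 and 1.12 in null E2 livers and 1.85, -1.15, 0.23, -0.12 and -0.23 in null placebo livers. They were 0.33, 0.18, 0.34, -1.46 and -1.39 in wild-type E2 livers and -0.03, -0.69, -1.53, -2.52 and -1.03 in wild-type placebo livers. The groups overlapped in every comparison. Wild-type E2 animals fell into 3 high and 2 low ones, and null placebo animal 1 was the highest of all 20. Over the 20 arrays the levels spanned a 20.8-fold range. The SD within groups was 1.01, larger than that of 98.9% of genes (median 0.23). Sult1e1 differed by 0.76 ± 0.60 with E2 in wild types (SE, limma adjusted p = 0.753, 95% interval -0.49 to 2.02) and by -0.32 ± 0.60 in nulls (adjusted p = 0.971). Under placebo the null level was 1.28 ± 0.60 above the wild-type level, with an unadjusted p of 0.0459 and an adjusted p of 0.488, so this difference did not pass. Within slides 1, 2 and 3, which held both placebo groups, it was 1.04, 2.76 and 1.11. These slides held 2 null against 1 wild-type placebo animal, 1 against 1 and 2 against 2. Spread between slides and between animals therefore cannot be told apart, and the slide 2 value rests on wild-type placebo animal 4 (-2.52). Within slides 1, 2 and 4 the E2 difference in wild types was 0.05, 2.86 and -1.36, so its sign was not the same in all of them.

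Sult1a1 encodes a phenol sulfotransferase that also sulfates estrogens. Its levels were 8.88, 8.64, 8.44, 8.59 and 8.49 in null E2 livers and 9.24, 8.26, 8.82, 8.52 and 8.29 in null placebo livers. They were 8.71, 8.18, 8.46, 8.02 and 7.90 in wild-type E2 livers and 8.65, 8.43, 8.14, 7.97 and 8.41 in wild-type placebo livers. Null placebo animal 1 was the highest of all, and the groups overlapped under both treatments. The means were 8.61 ± 0.17 in null E2, 8.63 ± 0.41 in null placebo, 8.25 ± 0.33 in wild-type E2 and 8.32 ± 0.27 in wild-type placebo livers (SD, n = 5 each). E2 differed from placebo by -0.06 ± 0.19 in wild types and -0.02 ± 0.19 in nulls (SE, limma adjusted p of 0.95 and 0.996). Averaged over treatments the nulls were 0.33 ± 0.13 higher, with an unadjusted p of 0.0214 and an adjusted p of 0.278. Its 2 probes share 8 bases and gave nearly the same picture across arrays (r = 0.994, n = 20), so they are not independent readings.

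Sts encodes steroid sulfatase, which frees estrogens from their sulfates. The target of its probe, which has no position in the files, could not be checked, so the values are those of the probe assigned to Sts. The probe read 3.72 ± 0.20 in null E2, 3.75 ± 0.26 in null placebo, 3.82 ± 0.15 in wild-type E2 and 3.87 ± 0.10 in wild-type placebo livers (SD, n = 5 each). The E2 difference in wild types was -0.05 ± 0.12 (SE, limma adjusted p = 0.936), with a 95% interval of -0.30 to 0.20. In nulls it was -0.03 ± 0.12 (adjusted p = 0.988). The null to wild-type difference was -0.11 ± 0.08 averaged over treatments (adjusted p = 0.687).

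Hsd17b2 encodes the dehydrogenase that oxidizes estradiol to estrone. Its levels were 3.95, 4.00, 4.03, 4.30 and 4.05 in null E2 livers and 4.11, 3.99, 3.78, 4.17 and 4.09 in null placebo livers. They were 4.23, 4.38, 4.75, 4.94 and 4.39 in wild-type E2 livers and 4.22, 3.70, 4.19, 4.05 and 4.20 in wild-type placebo livers. Every wild-type E2 liver was above every wild-type placebo liver (lowest 4.23, against a highest of 4.22), while the null groups overlapped. A gene whose groups separate in that direction was found in 0.968% of all genes, and Hsd17b2 was 1 of 9 members. The E2 difference in wild types was 0.47 ± 0.13 (SE, 95% interval 0.19 to 0.75), a 1.38-fold higher level, with an unadjusted p of 0.00233 and a limma adjusted p of 0.312. In nulls it was 0.04 ± 0.13 (adjusted p = 0.988, interval -0.24 to 0.31). The difference between the effects, wild types minus nulls, was 0.43 ± 0.19 with an unadjusted p of 0.0331 and an adjusted p of 0.654. Under E2 the nulls were lower than wild types by a log2 of -0.47 ± 0.13 (unadjusted p = 0.00223, adjusted p = 0.196), and averaged over treatments by -0.25 ± 0.09 (adjusted p = 0.229). None of these passed over all genes. The E2 difference in wild types was 0.245 with median scaling (unadjusted p = 0.287), where the median of all genes shifted by -0.22, and 0.963, 0.446 and 0.175 within slides 1, 2 and 4. These slides held 2 E2 animals against 1 placebo animal, 2 against 1 and 1 against 1, so spread between slides and between animals cannot be told apart. In lists of markers of other cells, 0 genes passed the limma adjusted p of 0.05 for E2 in wild types. The 5 red cell markers on the array had a summed linear level of 156 to 240 in wild-type E2 livers (median 163), against 106 to 150 in wild-type placebo livers (median 135). The 10 sinusoidal endothelial markers summed to 54.2 to 84.6 in wild-type E2 livers (median 77.8), against 50.7 to 95.6 in wild-type placebo livers (median 55.4). The 10 Kupffer cell markers summed to 61.3 to 173 (median 97.2), against 55.0 to 103 (median 84.6), so both sums overlapped. Taken singly, 10 of 10 endothelial markers (median log2 difference 0.09) and 10 of 10 Kupffer markers (median 0.27) lay above 0. The share of all genes above 0 was 50.6%, and 0 of these markers passed an unadjusted limma p of 0.05. The log2 differences of the measured lymphocyte markers had a median of 0.56 with 7 of 7 above 0 and 3 at an unadjusted p of 0.05, and those of the measured adipose markers a median of 0.56 with 3 of 3 above 0 and 1 at that p. Their part in the Hsd17b2 difference was not tested.

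**Figure D2:**
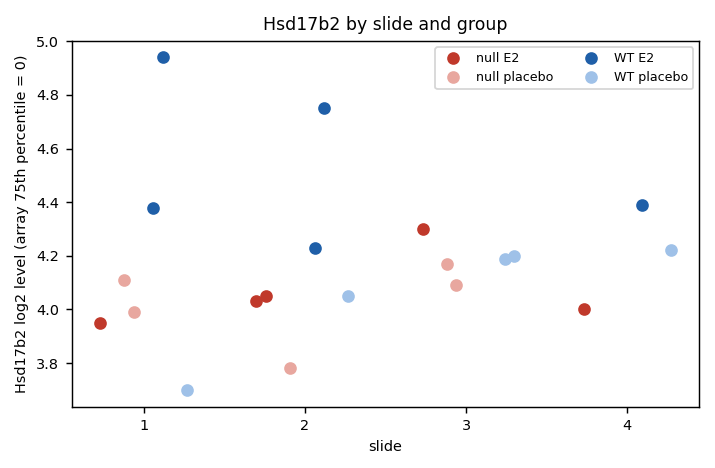
Log2 level of Hsd17b2 (y axis, array 75th percentile = 0) in each animal by slide (x axis), coloured by group, with null E2, null placebo, WT E2 and WT placebo from left to right in a slide. The WT E2 minus WT placebo difference was 0.963, 0.446 and 0.175 within slides 1, 2 and 4, and slide 3 held no WT E2 animal.

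Hsd17b11 encodes a dehydrogenase of lipid droplets that oxidizes androstanediol. It read 5.47 ± 0.23 in null E2, 5.36 ± 0.23 in null placebo, 5.53 ± 0.17 in wild-type E2 and 5.43 ± 0.17 in wild-type placebo livers (SD, n = 5 each). E2 differed from placebo by 0.10 ± 0.13 in wild types and 0.11 ± 0.13 in nulls (SE, limma adjusted p of 0.867 and 0.943). Hsd17b12 encodes a reductase of fatty acid elongation that can also reduce estrone to estradiol in mouse. Its levels were 3.67, 3.51, 3.45, 3.42 and 3.65 in null E2, 3.81, 3.28, 3.38, 3.33 and 3.34 in null placebo, 3.4, 3.51, 3.42, 3.32 and 3.18 in wild-type E2 and 3.50, 3.31, 3.26, 3.17 and 3.27 in wild-type placebo livers. All groups overlapped, and null placebo animal 1 stood above the rest of its group. The means were 3.54 ± 0.11 in null E2, 3.43 ± 0.21 in null placebo, 3.36 ± 0.12 in wild-type E2 and 3.30 ± 0.12 in wild-type placebo livers. The E2 differences were 0.06 ± 0.10 in wild types and 0.11 ± 0.10 in nulls (adjusted p of 0.895 and 0.920). Averaged over treatments, nulls were 0.15 ± 0.07 above wild types, with an unadjusted p of 0.0455 and an adjusted p of 0.373. The 95% intervals of these E2 differences lay between -0.17 and 0.38 for both genes.

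Ugt2b1 and Ugt2b5 encode liver glucuronosyltransferases of the Ugt2b subfamily, which conjugates steroids. Ugt2b1 levels were 2.69, 2.45, 3.59, 3.25 and 2.81 in null E2, 3.71, 2.86, 3.25, 3.58 and 3.29 in null placebo, 2.63, 2.50, 3.55, 3.71 and 3.39 in wild-type E2 and 3.0, 3.32, 3.56, 3.41 and 3.18 in wild-type placebo livers. In the E2 groups of both genotypes the lowest animals were below every placebo animal of that genotype, while the other animals overlapped. Ugt2b5 read 6.18 ± 0.24 in null E2, 6.44 ± 0.41 in null placebo, 6.43 ± 0.24 in wild-type E2 and 6.43 ± 0.22 in wild-type placebo livers (SD, n = 5 each). E2 differed from placebo in nulls by -0.38 ± 0.25 for Ugt2b1 and -0.26 ± 0.18 for Ugt2b5 (SE, limma adjusted p of 0.866 and 0.875). In wild types the differences were -0.14 ± 0.25 and -0.01 ± 0.18 (adjusted p of 0.913 and 0.994). The difference between these effects was 0.24 ± 0.35 for Ugt2b1 and 0.25 ± 0.25 for Ugt2b5 (adjusted p of 0.930 and 0.888).

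Cyp1b1 encodes a cytochrome P450 that makes catechol estrogens. It read -3.05 ± 0.50 in null E2, -2.85 ± 0.25 in null placebo, -2.69 ± 0.52 in wild-type E2 and -2.72 ± 0.36 in wild-type placebo livers (SD, n = 5 each). The E2 differences were 0.03 ± 0.25 in wild types and -0.20 ± 0.25 in nulls (SE, limma adjusted p of 0.984 and 0.951). The null to wild-type difference under E2 was -0.37 ± 0.25 (adjusted p = 0.666).

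**Figure D3:**
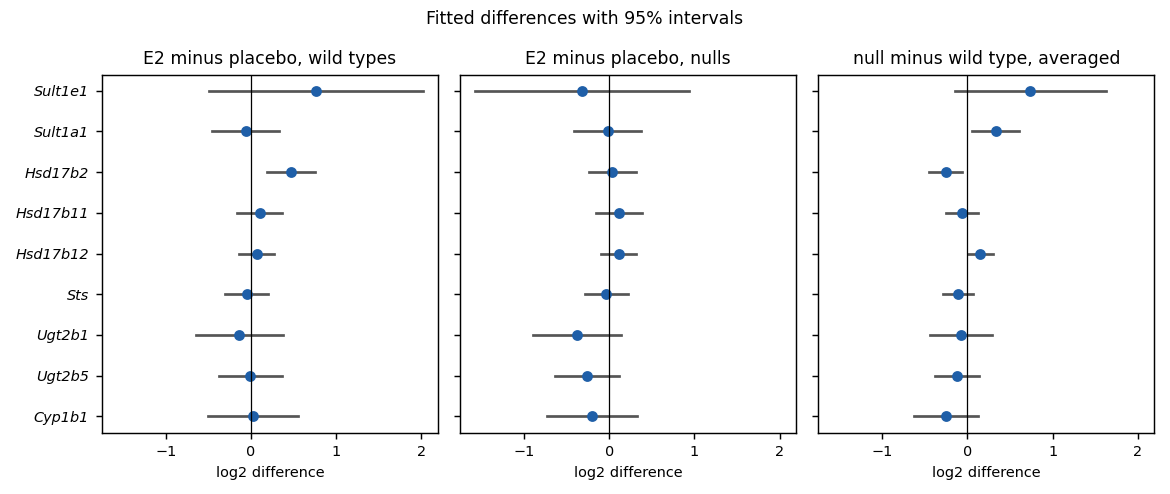
Fitted log2 differences (x axis) with 95% intervals for the 9 transcripts (rows): E2 minus placebo in wild types, E2 minus placebo in nulls, and null minus wild type averaged over both treatments. The points lie between -0.38 and 0.76, and no member passed the limma adjusted p of 0.05 in any of them.

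Across animals some members varied together. After subtraction of the group means, Sult1e1 and Hsd17b12 correlated at r = 0.87 (rho = 0.87, n = 20, permutation p = 2e-05), Sult1e1 and Sult1a1 at r = 0.80 (rho = 0.81, p = 5e-05), Sult1a1 and Hsd17b12 at r = 0.77 (rho = 0.78, p = 0.00052), and Ugt2b1 and Ugt2b5 at r = 0.73 (rho = 0.76, p = 0.0003). These were 4 of 36 pairs, with Benjamini-Hochberg adjusted permutation p over the 36 pairs of 0.00072, 0.0009, 0.00468 and 0.0036. The points share their array, so they also share its scaling. Without the 2 animals farthest from the median of the first-named gene, r was 0.85, 0.86, 0.70 and 0.71. With slide removed as a block and all animals kept it was 0.90, 0.80, 0.78 and 0.86. Within slide 1 it was 0.93, 0.94, 0.91 and 0.77, and within slide 2 it was 0.96, 0.61, 0.50 and 0.94 (6 arrays each). The pair of Sult1e1 and Hsd17b12 was weaker with median scaling, at r = 0.50. Hsd17b12 correlated with Sult1e1 more highly than 99.9% of genes did. This share was 99.4% for Sult1a1 with Sult1e1, 98.7% for Hsd17b12 with Sult1a1 and 99.5% for Ugt2b5 with Ugt2b1. How often pairs of other genes reach such r was not tested. The share of spots well above background did not follow Sult1e1 (r = -0.04, rho = 0.00, permutation p = 0.881). Hsd17b11 and Cyp1b1 had r = -0.59 and Hsd17b11 and Sts had r = 0.58, which did not pass over the 36 pairs (adjusted permutation p of 0.0796 and 0.14). With median scaling the first of these turned sign, to r = 0.16, and a pair with r = -0.01, Hsd17b2 and Hsd17b12, had r = 0.71, so correlations with these genes depended on the scaling.

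**Figure D4:**
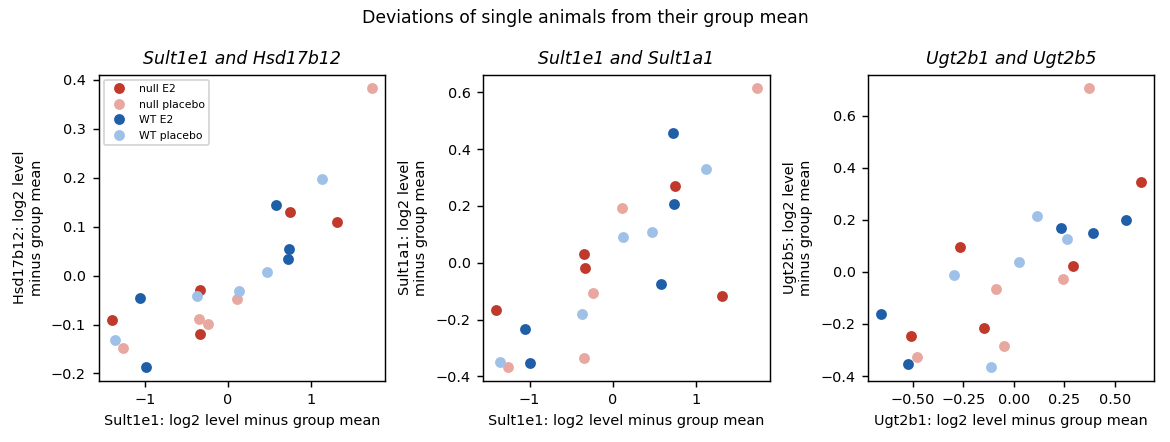
Deviation of each animal's log2 level from its group mean for 3 pairs of members, Sult1e1 with Hsd17b12, Sult1e1 with Sult1a1, and Ugt2b1 with Ugt2b5, coloured by group. Each panel shows 20 animals, with r of 0.87, 0.80 and 0.73, and null placebo animal 1 lies at the top right of the first 2 panels.

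Of the members, Sult1e1 had the largest spread over the arrays, and the genes whose levels followed it most closely over the 20 arrays were Mrpl27 (r = 0.91), Pdha1 (r = 0.91), Ptp4a1 (r = 0.89) and Ptcd3 (r = 0.89). The third of the top 5 is a probe that the files name only by an array identifier. Mrpl27 encodes a mitochondrial ribosomal protein, Pdha1 a subunit of pyruvate dehydrogenase, Ptp4a1 a protein phosphatase and Ptcd3 a mitochondrial protein with RNA-binding repeats. The correlation was ranked among 21971 genes and is a description.

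Because Sult1e1, Sult1a1 and Hsd17b12 varied together, their promoters are printed. The 250 bases before each annotated start come from RefSeq on build GRCm38.p6, at chr5:87591612-87591861 for Sult1e1, chr7:126676419-126676668 for Sult1a1 and chr2:94157910-94158159 for Hsd17b12, all on the minus strand. Capitals mark the half-site AGGTCA or its reverse TGACCT, a core bound by many nuclear receptors.
Sult1e1 promoter: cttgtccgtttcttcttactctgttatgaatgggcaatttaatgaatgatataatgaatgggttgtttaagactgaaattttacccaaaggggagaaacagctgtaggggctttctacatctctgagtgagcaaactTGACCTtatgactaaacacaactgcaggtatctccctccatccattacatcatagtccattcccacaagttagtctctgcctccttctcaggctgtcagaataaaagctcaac
Sult1a1 promoter: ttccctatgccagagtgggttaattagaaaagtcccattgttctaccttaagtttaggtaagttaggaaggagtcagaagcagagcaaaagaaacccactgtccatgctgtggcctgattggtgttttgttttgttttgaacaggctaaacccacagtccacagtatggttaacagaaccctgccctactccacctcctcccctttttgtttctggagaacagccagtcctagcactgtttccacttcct
Hsd17b12 promoter: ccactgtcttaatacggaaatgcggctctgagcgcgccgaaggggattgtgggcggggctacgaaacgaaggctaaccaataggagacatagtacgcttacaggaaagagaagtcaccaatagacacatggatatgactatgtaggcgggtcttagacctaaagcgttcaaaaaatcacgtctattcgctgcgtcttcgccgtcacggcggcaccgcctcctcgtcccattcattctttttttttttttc
The half-site was found on either strand in 2 of the 7 members that the table holds, starting 113 bases before the start in Sult1e1 and 22 bases before it in Ugt2b5. It occurred in 14.0% of 32851 promoters of this length. The longer estrogen response element, in which most of the half-site is paired with its reverse, was also searched. It was in 0 of the 7 members and in 0.0639% of all promoters. Hsd17b2 and Sts had no promoter entry, so their promoters were not searched. The core GCGTG or its reverse CACGC, a short letter run bound by the aryl hydrocarbon receptor that regulates Cyp1b1, was in 2 of the 7 (Hsd17b11 and Cyp1b1) and in 28.2% of all promoters. A match describes letters only.

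The rest of the pathway was counted by lists of genes. For E2 in wild types, E2 in nulls and the difference between them, 0 genes passed with limma in the lists of other sulfotransferases and sulfate donors (14 measured), other glucuronosyltransferases and glucuronide handling (15), other hydroxysteroid dehydrogenases and reductases (24), estrogen hydroxylation and catechol handling (25), transport of conjugated steroids (13) and receptors that regulate these enzymes (17). At an unadjusted p of 0.05, the numbers for E2 in wild types were 1, 1, 3, 4, 2 and 3 in that order, for E2 in nulls 1, 0, 0, 0, 1 and 2, and for the difference between the effects 0, 0, 1, 0, 1 and 6. The shares of all genes at that p were 8.28%, 6.06% and 7.39%. Hsd17b14, a dehydrogenase that oxidizes estradiol, differed by 0.44 ± 0.13 with E2 in wild types (SE, adjusted p = 0.333). Gusb, the lysosomal glucuronidase that can free glucuronides, differed by -0.21 ± 0.08 (adjusted p = 0.476). Abcc4, an exporter of conjugates, differed by 0.55 ± 0.19 (adjusted p = 0.419). Others had a lower mean with E2 in wild types. Hsd17b6 read 2.82 ± 0.45 in wild-type E2 and 3.36 ± 0.22 in wild-type placebo livers (SD, n = 5 each). Slco1a1, of the transport list, read -0.12 ± 2.41 and 1.60 ± 0.56 there, with overlapping values (-3.86 to 2.44 against 0.83 to 2.37). In nulls Slco1a1 also had a lower mean with E2, at -0.19 ± 1.38 against 1.35 ± 0.54 with placebo. For E2 in wild types, 11 of 24 genes of the dehydrogenase list and 7 of 13 of the transport list lay above 0.

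Between genotypes, the list of other hydroxysteroid dehydrogenases and reductases had 19 of 24 members above 0 averaged over treatments (median 0.09, against an all-gene median of 0.00 with 51.3% above 0), and 2 rose in nulls over all genes, where 0.696% of all genes were called. Of the other lists, estrogen hydroxylation and catechol handling had 18 of 25 above 0 (median 0.11) and transport 11 of 13 (median 0.10). Sulfotransferases had 6 of 14 above 0 (median -0.04), glucuronosyltransferases 6 of 15 (median -0.01) and receptors 10 of 17 (median 0.05). In the order of the lists above, 6, 2, 6, 9, 4 and 3 genes passed an unadjusted p of 0.05, against 12.9% of all genes. The hydroxylation list held differences of both signs, none of which passed over all genes. Averaged over treatments, Cyp3a25 differed by 0.38 ± 0.09, Cyp3a44 by -2.56 ± 0.60 and Cyp3a16 by -0.73 ± 0.20 (SE, limma adjusted p of 0.0514, 0.0541 and 0.0922). In the same comparison 0 of 10 sinusoidal endothelial markers lay above 0 (median -0.15), and the red cell marker Alas2 rose by 0.58 ± 0.08 (SE, limma adjusted p = 0.00172); their part in the genotype differences was not tested. Hsd3b3 rose by 0.53 ± 0.09 (limma adjusted p = 0.00829), with levels of 6.26 ± 0.15 and 6.32 ± 0.30 in null E2 and null placebo livers, against 5.87 ± 0.20 and 5.66 ± 0.09 in wild-type E2 and wild-type placebo livers (SD, n = 5 each). Hsd3b2 rose by 0.48 ± 0.10 (adjusted p = 0.0304). Both encode dehydrogenases of the Hsd3b family, whose members are close in sequence, so which of them gave the signal is uncertain. Slco2b1, an uptake transporter of estrone sulfate, rose by 0.27 ± 0.06 (adjusted p = 0.0405). The call of Hsd3b3 ended with median scaling (adjusted p = 0.0814). That of Hsd3b2 ended without any 1 of 10 arrays (log2 0.443 to 0.478) and in 5 other settings (adjusted p up to 0.194), and that of Slco2b1 without any 1 of 12 arrays (log2 0.243 to 0.271) and in 6 other settings (up to 0.503). In the other 4 pathway lists 0 genes passed, and Sult2a1, a hydroxysteroid sulfotransferase, differed by -4.58 ± 1.21 (adjusted p = 0.0827) with SDs of 4.33 and 2.79 in null E2 and null placebo livers, against 1.47 and 2.28 in wild-type E2 and wild-type placebo livers.

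Over all genes, 70 passed a limma adjusted p of 0.05 for E2 in wild types and 1 for E2 in nulls. For the estradiol response check, 5 genes that were chosen on these samples and so are no independent evidence, 5 of 5 rose with E2 in wild types, with a median of 3.38, and 0 of 5 passed in nulls (median -0.17).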

How the data were processed

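Liver RNA of 20 mice was measured on 1-colour Agilent arrays. The deposited processed intensity came from Feature Extraction 10.10.1.1 and is background-subtracted within the array, per the file headers; the probes are placed on mm9. The authors also deposited log2 values of 32526 probes, used as an alternative; its columns had a median of 7.85 and followed the log2 median signal. The notes of the submitters on processing list limma without a version. Here the log2 intensity minus the array's 75th percentile was used. Probes marked as well above background by 4 or 5 of the 5 arrays in any group were kept (30960 of 55681), and the brightest kept probe stood for a gene. Names were updated through RefSeq accessions where these matched. Non-uniform spots (0 to 16 per array) were left out, and no spot was saturated. The 4 group means were fitted together on all 20 arrays with limma 3.58.1 (R 4.3.3, with the package data.table at 1.17.8), leaving 16 residual degrees of freedom. Tests were 2-sided at 0.05, and p-values were adjusted by Benjamini-Hochberg across every gene, separately for the 6 comparisons. Correlations between members were tested by permutation within groups (100000 resamples). The number of arrays limits the precision. The fit was also run on simulated data in which genes were drawn independently and slides did not differ. That run does not cover correlated genes or differences between slides. Named genes were all members and, from each list, genes called in any comparison, up to 3 with the smallest adjusted p for E2 in wild types and up to 2 for genotype, plus the 5 most like Sult1e1. A few of them are given here. The members and the gene lists were chosen with earlier results of these data known. One result on a single marker gene is not reported here.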

Additional observations from a re-analysis of the deposited data

Results flagged for a closer look

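Levels that stood apart from the other 4 animals of their group by Dixon's test (critical value 0.71 for 5 animals) were found for 2 of 36 group levels, and chance gives about 1 in 20. Hsd17b11 was high in wild-type E2 animal 1, at 5.83, where the other animals of the group read 5.41 to 5.52. This animal also had the highest share of spots well above background, at 70.0%, and the part of that in the level was not tested. Hsd17b12 was high in null placebo animal 1, at 3.81, where the others read 3.28 to 3.38. The same animal had the highest Sult1e1 level (1.85), the highest Sult1a1 level (9.24) and the highest Ugt2b5 level (7.14) of its group and the lowest share of spots well above background (51.6%), whose part in these levels was not tested.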

How the results depend on the processing

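Over 1710 values of the 54 member differences in 32 settings, 0 members were called, the smallest limma adjusted p was 0.114, and 96 values turned sign, 58 of them with 1 array left out. The E2 difference of Hsd17b2 in wild types stayed above 0, at 0.245 to 0.625 (adjusted p 0.163 to 0.574). None of the differences that turned sign was called in the setting reported; the cause was not tested. With median scaling, which shifted the median of all genes by -0.22 for E2 in wild types and -0.12 in nulls, E2 in wild types gave -0.124 for Hsd17b11, -0.160 for Hsd17b12 and -0.196 for Cyp1b1, E2 in nulls gave -0.0695 for Hsd17b2, and null against wild type under E2 gave 0.0611 for Hsd17b11 and 0.0169 for Sts. With quantile scaling, E2 in nulls gave 0.00311 for Sult1a1 and 0.00767 for Sts, null against wild type under placebo -0.0131 for Ugt2b1 and -0.0672 for Ugt2b5, and Cyp1b1 -0.320 for E2 in wild types and -0.042 for the difference between the effects. With the authors' deposited log2 table, the same comparisons gave 0.0584 for Sult1a1, 0.00716 for Sts, -0.0154 for Ugt2b1, -0.0859 for Ugt2b5 and, for E2 in wild types, -0.0188 for Cyp1b1. With normexp, Ugt2b5 under placebo was -0.0153. With slide as a block, Ugt2b5 under placebo was -0.022, E2 in wild types 0.0371 for Sts and -0.0041 for Cyp1b1, and the difference between the effects 0.0138 for Hsd17b11 and 0.0412 for Sts; with slide as a random block, E2 in wild types was 0.00778 for Ugt2b5. With only animals numbered 750 or above, E2 in wild types was 0.255 for Ugt2b1 and 0.163 for Ugt2b5, and E2 in nulls 0.106 for Sult1a1, -0.00597 for Hsd17b2 and -0.00656 for Hsd17b11. There, null against wild type under placebo was 0.0637 for Hsd17b2, 0.0197 for Hsd17b11, 0.0577 for Sts and -0.154 for Ugt2b5, under E2 0.0105 for Hsd17b11, averaged 0.0151 for Hsd17b11 and 0.00601 for Sts, and the difference between the effects 0.00912 for Hsd17b11 and 0.103 for Sts.

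Leaving out 1 array at a time, E2 in wild types ranged from -0.178 to 0.0249 for Sult1a1, -0.0896 to 0.0118 for Sts, -0.274 to 0.0264 for Ugt2b1, -0.0987 to 0.0797 for Ugt2b5 and -0.132 to 0.212 for Cyp1b1. E2 in nulls ranged from -0.65 to 0.115 for Sult1e1, -0.107 to 0.137 for Sult1a1, -0.0266 to 0.072 for Hsd17b2 and -0.0962 to 0.0552 for Sts. The difference between the effects ranged from -0.201 to 0.0427 for Sult1a1, -0.0957 to 0.0524 for Hsd17b11, -0.14 to 0.00389 for Hsd17b12 and -0.107 to 0.0449 for Sts. Null against wild type under placebo ranged from -0.132 to 0.0241 for Hsd17b2, -0.0499 to 0.164 for Ugt2b1 and -0.172 to 0.0843 for Ugt2b5, and under E2 from -0.134 to 0.548 for Sult1e1 and -0.122 to 0.0203 for Hsd17b11.

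Counts over all genes moved by more than 1.5 times in some settings. In the order E2 in wild types, E2 in nulls, difference of the effects, genotype under placebo, under E2 and averaged, 70, 1, 36, 16, 102 and 153 genes were called, against 32, 0, 18, 7, 39 and 49 with median scaling and 41, 0, 10, 2, 35 and 49 with animals numbered 750 or above. E2 in wild types called 46 genes with only the groups compared; E2 in nulls called 0 there, without a filter on dim probes, with the mean of probes and with the replicate block, and 2 with slide as a block. Genotype under placebo called 8 with only the groups compared, 8 without the filter, 9 with slide as a block and 10 with normexp, and averaged 70 without the filter and 68 with slide as a block. Leaving out 1 array gave 50 to 87, 0 to 2, 31 to 40, 6 to 46, 67 to 120 and 77 to 273. With the replicate block, 0 members were called in every comparison and Hsd17b2 differed by 0.469 with E2 in wild types (limma adjusted p = 0.189). After subtraction of the group means, same-numbered samples correlated between -0.163 and 0.245 in 30 pairs, 12 of them over 0.1. Their mean r was 0.061, against -0.015 for samples with different numbers, and 3 of 20 samples correlated best with their own number. These correlations cannot show whether the numbers pair the samples.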
